A study of Mus musculus with 12 samples.

Results

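Expression of 8 genes that mark the primitive endoderm was followed in mouse embryonic stem cells (ESCs) with and without Cdk8. The genes are Gata6, Sox17, Foxa2, Pdgfra, Dab2, Lama1, Col4a1 and Sparc. They were taken by name, as known markers, with earlier results of these data known but with no measured value in the rule, from the 25759 genes of the deposited tables, and all 8 are listed there. Gata6, Sox17 and Foxa2 encode transcription factors, Pdgfra a receptor for platelet-derived growth factors, Dab2 an endocytic adaptor protein, and Lama1, Col4a1 and Sparc encode proteins of the extracellular matrix.

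The primitive endoderm is the lineage of the blastocyst that forms the parietal and visceral yolk sac endoderm. Its cells separate from the pluripotent epiblast under FGF signalling through ERK, which favours Gata6 over Nanog. Gata6 acts upstream of Sox17, Gata4 and Pdgfra, whereas Dab2 and the laminin and collagen IV genes follow as the cells form an epithelium that lays down basement membrane. ESC cultures hold mainly epiblast-like cells, and cells with primitive endoderm genes arise in them at a low rate.

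The study asked how Cdk8, a kinase of the Mediator complex, contributes to gene repression by Xist and which genes change in its absence. All libraries came from diploidised HATX3 ESCs, which were derived from haploid embryos and carry a doxycycline-inducible Xist allele. Wild-type samples WT1, WT2 and WT3 are parental cells, and the Cdk8-/- samples are the ΔCdk8 clones 8, 11 and 15, in which CRISPR/Cas9 removed a short stretch of the gene with the start codon. RNA of every line was taken without induction and again 48 h after Xist was switched on with 1 µg/ml doxycycline, so that the 12 libraries form 4 groups of 3. Each clone is a single line, so a value of a clone may belong to the line rather than to the genotype. The paper calls the parental HATX3 cells polyclonal and allows that differentiated cells might have been among them. Genotype and clonal origin cannot be told apart in this design. The labels do not tell if an induced and an uninduced wild-type sample with a shared number were grown from a single culture, and p-values then measure the spread between these samples. Maintenance medium contained serum, LIF and inhibitors of Gsk3β and of Mek, the kinase that activates ERK. The sources used here do not say whether the inhibitors were present before RNA was taken.

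The libraries held 22170087 to 60798578 reads assigned to genes. Levels are given as TPM, the abundance of a transcript after correction for its length and for the library total. The pluripotent cell markers Pou5f1, Sox2 and Nanog were present in every library, at 684.5 to 1779.2 TPM for Pou5f1. Cdk8 itself was listed at 51.5 to 74.2 TPM in wild-type libraries. The libraries labelled ΔCdk8 had 34.4 and 33.4 TPM in clone 8, 56.8 and 57.8 TPM in clone 11 and 85.3 and 84.9 TPM in clone 15, without and with induction, so that clone 15 lay above every wild-type library. The tables do not separate reads on the deleted stretch from the rest of the gene, and the genotype labels were not checked by these levels. The study identified the deletions by PCR and sequencing of genomic DNA and reported that clones 8, 11 and 15 lacked Cdk8 protein on immunoblots. It also measured Cdk8 RNA by qRT-PCR, and stated that a small insertion in a single clone might account for its residual transcript. None of these data were analysed here. WT1 stood apart from the other wild-type samples. In uninduced conditions, 6.38% of 12131 expressed genes differed more than 2-fold between WT1 and WT2, and 7.67% between WT1 and WT3, against 0.528% between WT2 and WT3. Against clones 8, 11 and 15 the share was 9.94%, 5.66% and 8.71% for WT1. It was 18.7%, 8.07% and 19.5% for WT2 and 20.2%, 9.69% and 20.7% for WT3. By this measure WT1 was the wild-type sample closest to each clone, and a fit without WT1 leaves that sample out. The tests of the 8 genes and the counts of calls in each gene list are therefore also given without it. Whether WT1 differs through its culture, its handling or its cells was not tested.

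Gata6 was expressed at low levels in all groups. In uninduced wild-type ESCs it was at 1.51 TPM in WT1, 0.201 in WT2 and 0.0668 in WT3. In uninduced ΔCdk8 ESCs it was at 0.223 TPM in clone 8, 1.2 in clone 11 and 0.777 in clone 15. After induction the levels were 3.86, 0.178 and 0.280 TPM in WT1, WT2 and WT3 and 0.360, 1.92 and 1.59 TPM in clones 8, 11 and 15. Thus WT1 held more Gata6 transcript than any other line in both conditions, clones 11 and 15 came next, and the genotypes overlapped. Behind these levels stood 5 to 158 exon reads per library. In bulk RNA, a small number of Gata6-positive cells and a low level in every cell cannot be told apart.

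Sox17 and Foxa2, the other transcription factors, were close to the detection limit. Sox17 reached at most 0.265 TPM, in uninduced clone 11, and its exon reads numbered 21 at most and 3 or fewer in 5 of the 12 libraries. Foxa2 had at most 7 exon reads, with 3 or fewer in 9 libraries and none in 4. A count of 3 reads corresponds to 0.0295 to 0.0784 TPM for Sox17 and to 0.0587 to 0.156 TPM for Foxa2, depending on the depth of the library. Neither gene passed the filter on low counts in any comparison of all libraries, so no difference between genotypes or conditions was detectable at this depth for these 2 genes. Sox17 passed the filter in some fits that left out a sample and was called in none of them, the lowest p being that of clone 15 against clone 11 without WT2 (-3.73, SE 1.33, edgeR adjusted p = 0.0874).

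Pdgfra, which encodes the receptor used to isolate primitive endoderm cells, was highest in the 3 lines with the most Gata6, though in another order among them in uninduced conditions. Uninduced levels were 0.713, 0.0817 and 0.142 TPM in WT1, WT2 and WT3 and 0.273, 0.902 and 0.834 TPM in clones 8, 11 and 15. Induced levels were 0.861, 0.0591 and 0.106 TPM in the wild-type samples and 0.231, 0.783 and 0.729 TPM in the clones. WT1, clone 11 and clone 15 were high, WT2 and WT3 were low, and clone 8 lay in between in both conditions. Over the 12 libraries, Pdgfra and Gata6 correlated with r = 0.856 on the log2(TPM + 1) scale, a description in which both libraries of a line count separately.

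Since GATA factors act on primitive endoderm genes, the 250 bases upstream of RefSeq starts were searched for the word AGATAA, the word AGATAG, the word TGATAA and the word TGATAG on both strands, which overlap no other motif searched. RefSeq sequence of build GRCm38.p6 was matched for 5 of the 8 genes, namely Foxa2, Pdgfra, Col4a1, Sparc and Dab2, and not for Gata6, Sox17 and Lama1. Of 32851 windows of this length, 26.5% held such a word. Among the 8 windows of the 5 genes, 2 held one, 183 bases upstream of a Foxa2 start and 179 bases upstream of a Dab2 start. The Pdgfra window held none. A second Dab2 window, at chr15:6386498-6386747, and the other Foxa2 windows held none either, and which start was used in these cells was not tested. The window of Pdgfra and the Dab2 window with a word are shown because the levels of these 2 genes related differently to that of Gata6. The word is in capitals, and the windows are from chr5:75152001-75152250 on the forward strand and chr15:6299539-6299788 on the forward strand.
Pdgfra: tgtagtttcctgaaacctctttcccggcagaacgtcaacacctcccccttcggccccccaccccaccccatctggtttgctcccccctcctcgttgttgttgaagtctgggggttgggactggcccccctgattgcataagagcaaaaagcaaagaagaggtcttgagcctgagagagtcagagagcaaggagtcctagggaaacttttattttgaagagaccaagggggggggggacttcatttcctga
Dab2: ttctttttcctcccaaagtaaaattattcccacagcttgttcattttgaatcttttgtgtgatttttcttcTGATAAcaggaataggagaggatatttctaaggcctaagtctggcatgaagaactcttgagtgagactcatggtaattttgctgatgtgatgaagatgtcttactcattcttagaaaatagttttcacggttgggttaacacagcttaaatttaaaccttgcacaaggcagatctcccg

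Dab2 overlapped between the genotypes. It was at 2.04, 3.33 and 3.58 TPM in uninduced WT1, WT2 and WT3 and at 2.60, 3.07 and 3.37 TPM in uninduced clones 8, 11 and 15. After induction it was at 2.5, 1.72 and 1.99 TPM in the wild-type samples and at 3.10, 2.11 and 2.92 TPM in the clones. WT1, the highest line for Gata6, was the lowest of the uninduced lines for Dab2, and clones 8 and 15 were the highest lines after induction.

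Lama1 encodes the laminin α1 chain, which pairs with the products of Lamb1 and Lamc1 in the first laminin of the embryo. Uninduced levels were 7.96, 4.78 and 3.80 TPM in WT1, WT2 and WT3 and 7.85, 19.2 and 6.57 TPM in clones 8, 11 and 15. After induction they were 13.8, 11.6 and 11.2 TPM in the wild-type samples and 11.2, 25.3 and 9.43 TPM in the clones. Clone 11 was the highest line in both conditions, and clones 8 and 15 lay within or close to the wild-type range. Lama1 was higher in the induced than in the uninduced library of every line.

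Col4a1 encodes a chain of collagen IV, the network collagen of basement membranes. Uninduced levels were 25.8, 6.42 and 8.70 TPM in WT1, WT2 and WT3 and 47.7, 20.2 and 72.8 TPM in clones 8, 11 and 15. Induced levels were 29.6, 7.64 and 8.52 TPM in the wild-type samples and 55.4, 22.1 and 62.2 TPM in the clones. Clones 8 and 15 exceeded all wild-type libraries, whereas clone 11 lay above WT2 and WT3 and below WT1 in both conditions.

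Col4a2, which encodes the partner chain, is read from the opposite strand of the same locus, and its level moved with that of Col4a1. It was at 10.6, 1.09 and 1.51 TPM in uninduced WT1, WT2 and WT3 and at 24.5, 7.79 and 41.2 TPM in uninduced clones 8, 11 and 15. Over the 12 libraries the pair correlated with r = 0.995 on the log2(TPM + 1) scale. In the authors' annotation the 5′ ends of the pair overlap by 22 bases, at chr8:11312805-11312826. These bases are printed in capitals within the 30 bases of chr8:11312801-11312830, read from the forward strand of GRCm38, to show how close the divergent starts are.
Col4a1 and Col4a2 shared start: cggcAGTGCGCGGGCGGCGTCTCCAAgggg
The libraries were stranded, but whether reads were counted by strand is not given in the sources used here. Reads on the shared bases could therefore count for either gene.

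Sparc, which encodes a secreted protein that binds collagen IV, had the highest level of the 8 genes in all libraries. Uninduced levels were 265.7, 148.0 and 180.1 TPM in WT1, WT2 and WT3 and 524.9, 296.0 and 443.3 TPM in clones 8, 11 and 15. Induced levels were 362.4, 248.0 and 285.7 TPM in the wild-type samples and 667.2, 314.5 and 533.9 TPM in the clones. In uninduced conditions every clone exceeded every wild-type sample, with WT1 and clone 11 as neighbours. In induced conditions clone 11 lay below WT1.

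**Figure D1:**
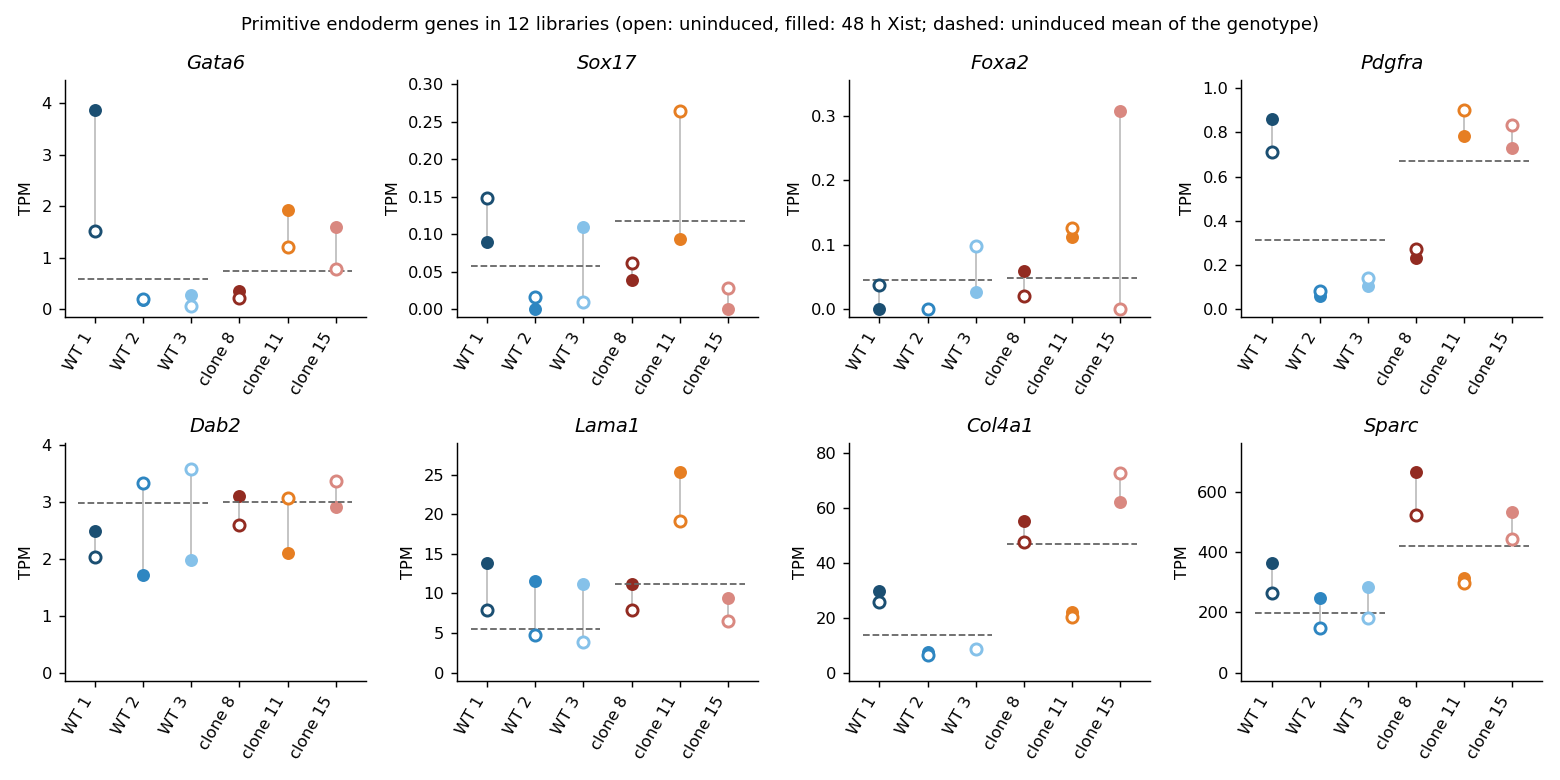
TPM of the 8 primitive endoderm genes in each wild-type sample and ΔCdk8 clone, with a separate vertical axis per gene that starts near 0. Open circles are uninduced and filled circles induced libraries, and dashed lines give the uninduced mean of each genotype (n = 3). WT1 is the highest line for Gata6, clone 11 for Lama1, clone 15 for Col4a1 and clone 8 for Sparc.

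By level, the 8 genes kept nearly the same order in both genotypes. In uninduced wild-type ESCs the mean was 197.9±60.8 TPM for Sparc, 13.7±10.6 for Col4a1, 5.51±2.18 for Lama1 and 2.98±0.827 for Dab2 (s.d., n = 3). Gata6 followed at 0.593±0.799 TPM and Pdgfra at 0.312±0.348 TPM. In uninduced ΔCdk8 ESCs the means were 421.4±116.0, 46.9±26.3, 11.2±6.97 and 3.01±0.387 TPM for Sparc, Col4a1, Lama1 and Dab2, then 0.733±0.490 for Gata6 and 0.670±0.345 for Pdgfra. Sparc stood clear of all others in either genotype, whereas Gata6 and Pdgfra did not differ beyond their spread, nor did Col4a1 and Lama1 in wild-type ESCs. Matrix genes were thus the abundant members, and the transcription factors and the receptor were at or below a few TPM.

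The uninduced comparison of ΔCdk8 with wild-type ESCs asks which genes change without Cdk8 before Xist is expressed. Col4a1 had the largest difference among the 6 members that passed the low-count filter, with a log2 fold change of 1.58 (SE 0.59), and Pdgfra, Lama1 and Sparc lay between 0.92 and 1.01. Their median was 0.92, against 0.03 over all 14646 genes tested. A gene was called when it differed more than 2-fold and its adjusted p was under 0.01. None of the 6 passed this threshold, and neither did any other gene by edgeR (0.00% called higher and 0.00% lower). The adjusted p was 0.212 for Col4a1, 0.155 for Sparc, 0.316 for Lama1 and 0.489 for Pdgfra in edgeR's quasi-likelihood test. Gata6, with a log2 fold change of 0.19 (SE 1.13), and Dab2, with -0.14 (SE 0.30), were closest to no difference.

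At an unadjusted p under 0.05, Col4a1 and Sparc were among the 1738 genes that were higher (11.9% of those tested), and no member was among the 1244 that were lower (8.49%). DESeq2 called 264 genes higher (1.80%) and 122 lower (0.833%), again with no member, since Sparc had a log2 fold change of 0.89 with an adjusted p of 0.0293 and Col4a1 one of 1.55 with an adjusted p of 0.0571. Sparc was the only one of the 6 members whose 3 clones all lay above the 3 wild-type samples, a pattern found for 16.3% of all genes tested. With 3 samples against 3, an exact two-sided permutation test cannot give a p below 0.1.

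WT1 bears on this comparison. For Gata6, Pdgfra and Col4a1 it was more than 2-fold above both WT2 and WT3, as it was for 7.13% of all genes tested. The ratio of WT1 to the mean of WT2 and WT3 was 11.3 for Gata6, 6.37 for Pdgfra, 3.42 for Col4a1, 1.86 for Lama1, 1.62 for Sparc and 0.590 for Dab2. Without WT1 the log2 fold changes were 2.47 (SE 0.99) for Gata6, 2.42 (SE 0.70) for Pdgfra, 2.42 (SE 0.47) for Col4a1, 1.31 (SE 0.55) for Lama1 and 1.18 (SE 0.22) for Sparc. Gata6, Pdgfra, Lama1, Col4a1 and Sparc were then above both remaining wild-type samples in all 3 clones, as were 30.5% of all genes tested. Even so, no member was called by edgeR without WT1, where 0.00661% of genes were called higher and 0.00661% lower, and the smallest adjusted p among the members was 0.0512, for Sparc. Dab2 stayed near its former value, at -0.34 (SE 0.27).

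Other samples bore on single members of the uninduced comparison, none of which was called in any of these fits. Gata6 was negative without WT2 (-0.24, SE 1.23), without WT3 (-0.37, SE 1.03) and without clone 11 (-0.49, SE 1.30). Pdgfra had 0.56, 0.64 and 0.61 in the same fits. Lama1 was 0.18 (SE 0.35) without clone 11, the clone with the most Lama1, and 0.71 to 1.31 with any other sample left out. Col4a1 stayed between 1.18 and 2.42 and Sparc between 0.74 and 1.18 whichever sample was left out.

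Each clone was next compared with wild type over uninduced and induced libraries, because the clones differed in which members were high. These tests set 2 libraries of a single clone against 6 wild-type libraries, and so describe the line and not a genotype. Both libraries of a line enter as separate values, although libraries of the same number deviate together, so that these p-values are too small. Sparc was higher in clone 8, by 1.27 on the log2 scale (SE 0.24, edgeR adjusted p = 0.00654), where 2.86% of 15137 genes were called higher. Lama1 was higher in clone 11, by 1.72 (SE 0.28, edgeR adjusted p = 0.00852), where 0.865% of genes were called higher. No member was called in clone 15, where 1.73% of genes were called higher by edgeR. DESeq2 called no member there either, beside 5.26% of genes higher and 4.64% lower. Col4a1 at 1.98 (SE 0.68, edgeR adjusted p = 0.0616) and Sparc at 0.87 (SE 0.24, edgeR adjusted p = 0.0295) were the members with an unadjusted p under 0.05 there, as were 18.4% of genes that were higher. No member was called lower by edgeR in any clone, where 2.37%, 0.449% and 1.35% of genes were called lower in clones 8, 11 and 15.

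The calls in clones 8 and 11 did not hold with every set of wild-type libraries. The Sparc call in clone 8 was lost without WT2 (log2 fold change 1.09, edgeR adjusted p = 0.0266) and without WT3 (1.2, adjusted p = 0.0399). The Lama1 call in clone 11 was lost without WT2 (1.61, edgeR adjusted p = 0.0617) and without WT3 (1.5, adjusted p = 0.0361). Both calls held without WT1, and further members then passed.

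Without WT1, Col4a1 was called higher in every clone, by 2.54 (SE 0.16) in clone 8, 1.43 (SE 0.16) in clone 11 and 2.81 (SE 0.16) in clone 15. Gata6 was called higher in clones 11 and 15, by 3.27 (SE 0.57) and 2.54 (SE 0.58), and so was Pdgfra, by 2.92 (SE 0.39) and 2.55 (SE 0.40). Clone 8 had 0.67 (SE 0.61) for Gata6 and 1.06 (SE 0.40) for Pdgfra, which did not pass. Sparc was called in clones 8 and 15, and Lama1 in clone 11. Called members were then 2 of 6 in clone 8, 4 of 6 in clone 11 and 4 of 6 in clone 15, beside 13.0%, 6.46% and 11.9% of all 15553 genes called higher. Removing WT1 thus raised the calls among all genes as well as among the members.

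**Figure D2:**
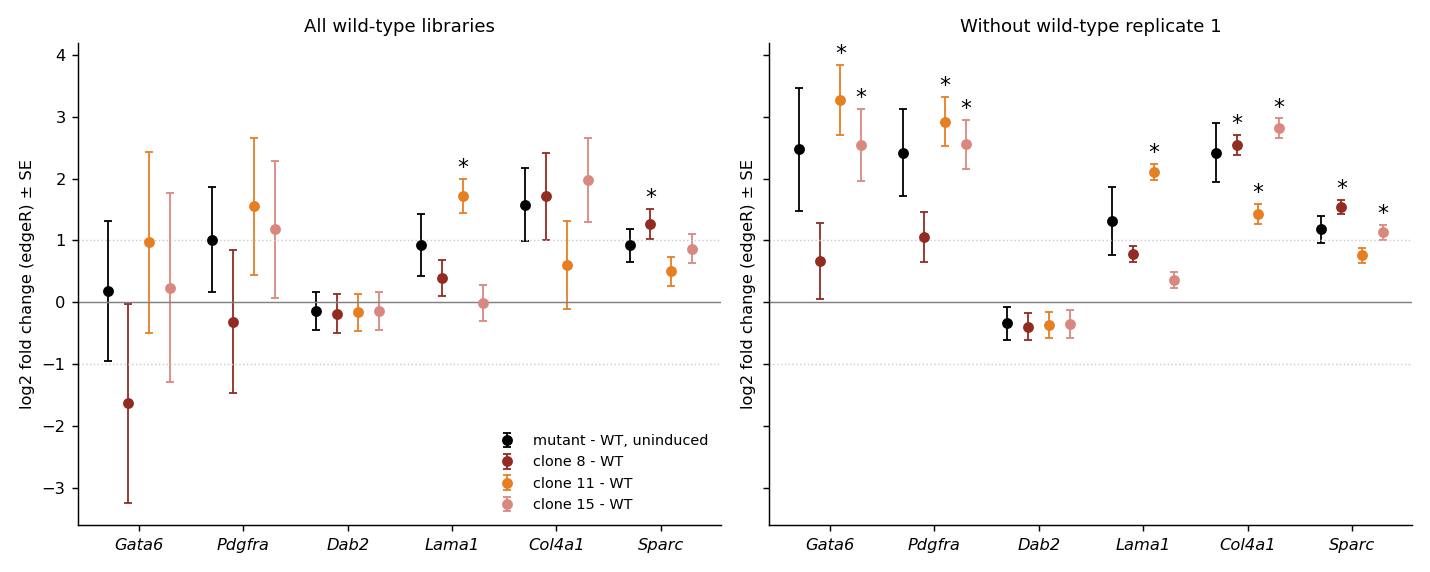
edgeR log2 fold changes with standard errors for the 6 members tested, in all uninduced ΔCdk8 against wild-type samples (black) and in each clone against wild type over both conditions (dark red for clone 8, orange for clone 11, pink for clone 15), with all wild-type libraries (left) and without WT1 (right). Asterisks mark differences of more than 2-fold whose adjusted p was under 0.01, dotted lines a 2-fold change. With all libraries only Lama1 in clone 11 and Sparc in clone 8 are marked, whereas without WT1 Gata6, Pdgfra and Col4a1 are also marked.

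Compared with each other, the clones differed in Lama1. It was lower in clone 15 than in clone 11 by a log2 fold change of -1.73 (SE 0.30, edgeR adjusted p = 0.00487), where 2.64% of genes were called lower and 2.62% higher. The call was lost without WT2 (-1.70, edgeR adjusted p = 0.0180). Between clones 8 and 11 no member was called by edgeR, where 2.21% of genes were called higher and 2.90% lower. The nearest were Lama1 at -1.32 (SE 0.29, edgeR adjusted p = 0.0136) and Sparc at 0.77 (SE 0.24, edgeR adjusted p = 0.0484), which were also the members with an unadjusted p under 0.05, beside 18.0% of genes higher and 18.9% lower. DESeq2 called Lama1 lower in clone 8 than in clone 11, with an adjusted p of 0.000355, as it did 5.25% of genes. Gata6 had -2.60 in clone 8 against clone 11, with an SE of 1.58 and an edgeR adjusted p of 0.264. Without WT1 the same difference had an SE of 0.48 and was called, together with those of Pdgfra (-1.86, SE 0.35) and Lama1 (-1.31, SE 0.12, edgeR adjusted p = 1.78e-05), and Col4a1 was called higher in clones 8 and 15 than in clone 11. Without WT1 edgeR called 7.12% of genes higher and 6.20% lower in clone 8 against clone 11, and 7.57% higher and 7.44% lower in clone 15 against clone 11. Between clones 8 and 15 no member was called by edgeR, beside 0.0264% of genes higher and 0.0132% lower, or by DESeq2, beside 0.747% higher and 0.965% lower. No member had an unadjusted edgeR p under 0.05 there, as 11.3% of genes that were higher and 8.68% that were lower did.

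The median log2 fold change over all tested genes on the chromosome of each member lay between -0.13 and 0.07 in the uninduced comparison and in each clone against wild type. A median over a whole chromosome cannot show a change in a part of it. Changes in parts of chromosomes were not tested, and the contrasts between clones were not examined in this way.

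Induction of Xist asks which genes respond within 48 h, and Lama1 and Sparc were the members that were higher after induction in all 6 lines, a pattern shared by 9.93% of genes tested. Induced over uninduced TPM of Lama1 was 1.74, 2.42 and 2.96 in WT1, WT2 and WT3 and 1.43, 1.32 and 1.44 in clones 8, 11 and 15. For Sparc the ratios were 1.36, 1.68 and 1.59 in the wild-type samples and 1.27, 1.06 and 1.2 in the clones. Each wild-type ratio of Lama1 was above each ratio of the clones, and the same held for Sparc, as for 13.7% of all genes tested. The tables hold no row for Xist, so that the strength of induction in each line was not measured here.

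In wild-type ESCs, Lama1 had a log2 fold change on induction of 1.18 (SE 0.29, edgeR adjusted p = 0.0700), and Sparc one of 0.61 (SE 0.23, edgeR adjusted p = 0.196). Neither passed, and 0.150% of 14006 genes were called higher and 1.01% lower by edgeR. Both had an unadjusted p under 0.05, as had 10.8% of genes that were higher. With the sample number as a block, which pairs each induced with its uninduced library, Lama1 rose by 1.25 (SE 0.18, edgeR adjusted p = 0.00816) and was called, beside 1.47% of genes, while Sparc had 0.64 (SE 0.10, edgeR adjusted p = 0.00913) and stayed under 2-fold. DESeq2 without the block also called Lama1 (1.16, adjusted p = 0.00277), beside 1.59% of genes. Without WT1 the unblocked edgeR value was 1.46 (SE 0.14, adjusted p = 0.00212), also a call, beside 1.36% of genes, and Sparc had 0.73 (SE 0.11, adjusted p = 0.00871), under 2-fold.

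In ΔCdk8 ESCs, Lama1 had a log2 fold change of 0.48 (SE 0.59) and Sparc one of 0.28 (SE 0.27), with an edgeR adjusted p of 1.0 for both. No gene passed by edgeR (0.00% called higher and 0.00% lower). At an unadjusted p under 0.05, 82 genes were higher (0.553%) and 310 lower (2.09%) without a member among them, and DESeq2 called 0.00% of genes higher, 36 genes lower (0.243%) and no member. With the clone as a block, Lama1 had 0.53 (SE 0.08, edgeR adjusted p = 0.000170) and Sparc 0.25 (SE 0.08, edgeR adjusted p = 0.0360), below the 2-fold minimum, and 0.135% of genes were called higher.

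The difference in induction between genotypes was tested directly. For Lama1 the change in ΔCdk8 minus that in wild-type ESCs was -0.68 (SE 0.72, edgeR adjusted p = 1.0), and with the block -0.70 (SE 0.20, edgeR adjusted p = 0.0707). For Sparc it was -0.31 (SE 0.38, edgeR adjusted p = 1.0), and with the block -0.37 (SE 0.12, edgeR adjusted p = 0.115). Without WT1 and without the block the values were -0.98 (SE 0.82) for Lama1 and -0.46 (SE 0.38) for Sparc, each with an edgeR adjusted p of 1.0, and no gene was called (0.00%). The response of neither gene was shown to differ between the genotypes. By edgeR no gene passed this test without the block (0.00% called higher and 0.00% lower), with 406 genes higher (2.68%) and 181 lower (1.20%) at an unadjusted p under 0.05 and no member among them. DESeq2 called 31 genes higher (0.205%) and 2 lower (0.0132%) and no member, and with the block edgeR called 0.780% of genes higher, 0.218% lower and no member.

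The other members showed no shared response. Gata6 was higher after induction in 5 of 6 lines, WT2 being the exception, with a log2 fold change of 1.21 (SE 1.44, edgeR adjusted p = 0.693) in wild-type and 0.71 (SE 0.83, edgeR adjusted p = 1.0) in ΔCdk8 ESCs. Pdgfra was lower after induction in WT2, WT3 and the 3 clones, and higher in WT1. Dab2 was lower in WT2 and WT3, at 0.517 and 0.556 of the uninduced level, and higher in WT1 at 1.23, and the clones went either way. Without WT1, Dab2 had -0.85 (SE 0.18, edgeR adjusted p = 0.0215) on induction in wild-type ESCs and a difference between genotypes of 0.72 (SE 0.33, edgeR adjusted p = 0.969), neither of which passed. Col4a1 stayed between 0.855 and 1.19 of its uninduced level in all 6 lines, and in none of these genes did the induction tests pass the threshold in either genotype.

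**Figure D3:**
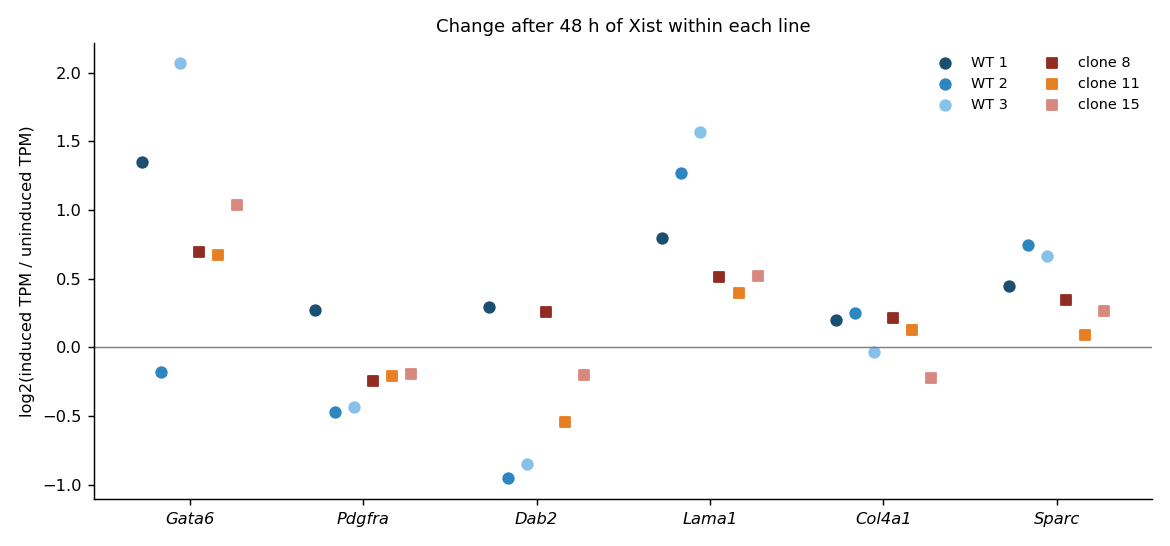
Log2 ratio of induced to uninduced TPM within each wild-type sample (circles) and ΔCdk8 clone (squares) for the 6 members tested, with a line at no change. Lama1 and Sparc lie above 0 in all 6 lines, Col4a1 lies close to 0, and Dab2 lies below 0 in WT2 and WT3 and above 0 in WT1.

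Among the members, the matrix genes did not move as a single group. Col4a1 and Sparc correlated with r = 0.891 over the 12 libraries on the log2(TPM + 1) scale, whereas Lama1 and Col4a1 had r = 0.151. The line with the most Lama1, clone 11, had the least Col4a1 and Sparc of the clones. Gata6 correlated with Lama1 at r = 0.560, with Col4a1 at r = 0.406 and with Sparc at r = 0.249, and with Dab2 at r = -0.174. These values describe 12 libraries of 6 lines that share clones, and carry no test.

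**Figure D4:**
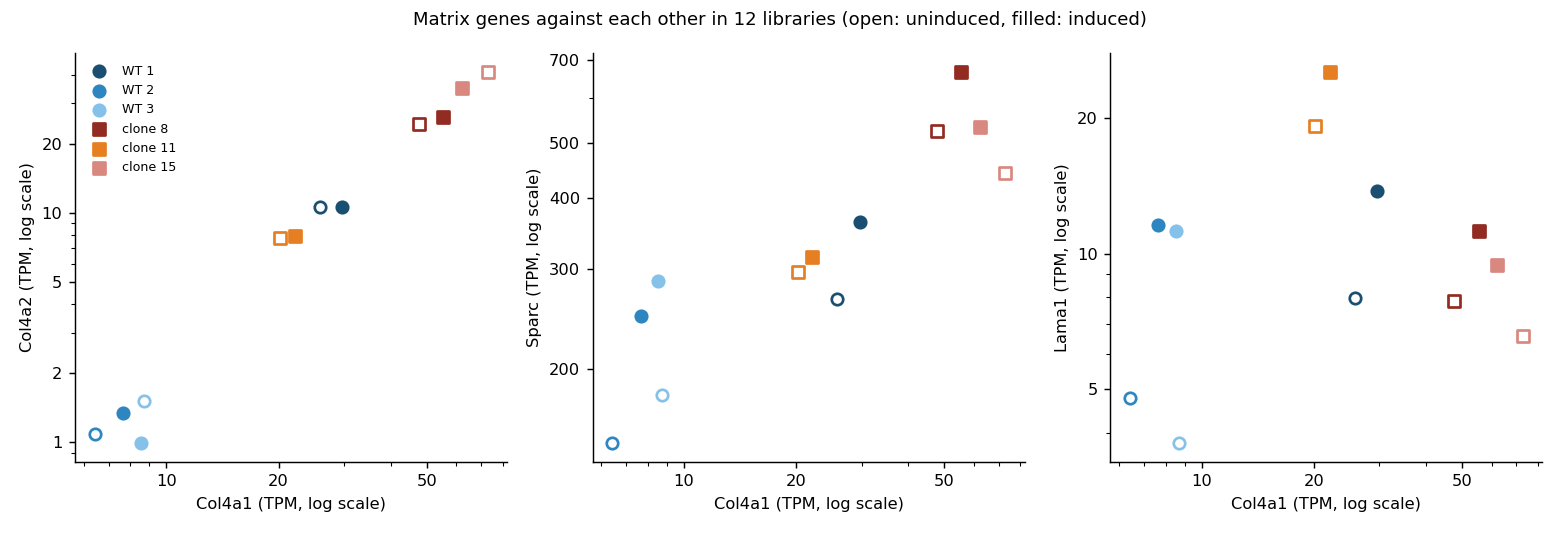
TPM of Col4a2, Sparc and Lama1 against TPM of Col4a1 in the 12 libraries, on log axes, with circles for wild-type and squares for ΔCdk8 lines and open symbols for uninduced libraries. Col4a2 and Col4a1 lie on a line, Sparc and Col4a1 rise together, and the clone 11 libraries stand apart in the plot of Lama1.

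Further primitive endoderm genes were taken from a list of 22, of which 12 passed the low-count filter in the uninduced comparison. None was called by edgeR with or without WT1. At an unadjusted p under 0.05, 4 were higher and 1 lower, beside 11.9% and 8.49% of all genes tested. DESeq2 called Lrp2, an endocytic receptor of the visceral endoderm, lower (-1.77, adjusted p = 0.000677), beside 0.833% of genes. Lrp2 was the gene of this list with every clone below every wild-type sample, as were 6.79% of all genes tested. The median log2 fold change of the 12 list genes was 0.69, against 0.03 over all genes. Gata4, the factor that acts with Gata6, was at 1.13, 0.164 and 0.536 TPM in uninduced WT1, WT2 and WT3 and at 1.82, 2.37 and 5.42 TPM in uninduced clones 8, 11 and 15, so that the groups did not overlap (log2 fold change 2.22, SE 0.67, edgeR adjusted p = 0.171). Amn, which encodes the membrane anchor of the cubilin receptor (2.0, SE 0.65, edgeR adjusted p = 0.180), and Plat, which encodes tissue plasminogen activator, did not overlap either, and 16.3% of all genes tested had every clone above every wild-type sample. Sox7, another factor of the lineage, had -0.43 (SE 0.93, edgeR adjusted p = 0.80), and Cited1 1.93 (SE 0.68, edgeR adjusted p = 0.198). In all 12 libraries, 10 of the 22 genes stayed below 1 TPM, among them Hnf4a, Foxa1, Ttr and Afp, which mark visceral endoderm or its later stages.

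In the clones, Amn rose in clone 8 by 2.75 (SE 0.36, edgeR adjusted p = 0.00199) and Fst, which encodes the activin inhibitor follistatin, was called lower (edgeR adjusted p = 0.00453). Fst was at 0.0400 and 0.0512 TPM in the libraries of clone 8, close to the detection limit, against 0.580 to 3.56 TPM in wild type. Clone 8 was also below clone 11 for Fst and for Cubn, the partner of Amn, at -3.39 (SE 0.57, edgeR adjusted p = 0.00448). No gene of this list was called in clones 11 or 15 against wild type by edgeR. DESeq2 called Srgn, which encodes serglycin, higher (5.23, adjusted p = 0.00405) and Lrp2 lower (-2.10, adjusted p = 0.00340) in clone 11, beside 2.59% of genes higher and 1.86% lower. In clone 15 it called Gata4 (2.82, adjusted p = 0.00860) and Cited1 (2.40, adjusted p = 0.00395) higher and Fst lower (-2.88, adjusted p = 0.00174), beside 5.26% of genes higher and 4.64% lower. In clone 8 DESeq2 called Cited1 (2.45, adjusted p = 0.0026) and Amn higher and Lrp2 (-2.0, adjusted p = 0.00245) and Fst lower. The count of all genes that DESeq2 called in clone 8 is given in the last section. Once WT1 was left out, of the 18 genes tested 5 were called higher and 4 lower in clone 8, 4 higher and 1 lower in clone 11, and 6 higher and 3 lower in clone 15. Among all genes, 13.0%, 6.46% and 11.9% were then called higher and 7.67%, 3.03% and 8.31% lower in clones 8, 11 and 15. The summed level of the list did not separate the genotypes, at 28.1 to 45.2 TPM in uninduced wild-type and 26.6 to 48.5 TPM in uninduced ΔCdk8 libraries. Lrp2, at 9.04 to 26.0 TPM in uninduced wild-type and 4.41 to 6.91 TPM in uninduced ΔCdk8 libraries, and Fgfr2, an FGF receptor, at 7.07 to 8.83 and 2.33 to 11 TPM, made up most of this sum in wild type.

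Basement membrane and collagen assembly genes other than the members, 15 in number and all tested, had a median log2 fold change of 0.65. None was called by edgeR in uninduced conditions with or without WT1. At an unadjusted p under 0.05, 7 were higher and none lower, beside 11.9% and 8.49% of all genes tested, and DESeq2 called Nid2 (1.09, adjusted p = 0.00705). Nid1 and Nid2, which link laminin to collagen IV, had 1.70 (SE 0.55, edgeR adjusted p = 0.179) and 1.11 (SE 0.26, edgeR adjusted p = 0.137), and Col4a2 had 2.26 (SE 0.92, edgeR adjusted p = 0.233). The laminin partners were closer to no difference, with 0.01 (SE 0.28, edgeR adjusted p = 0.987) for Lamb1 and 0.49 (SE 0.17, edgeR adjusted p = 0.197) for Lamc1. Lamc1, Nid1, Nid2 and Serpinh1 did not overlap between the genotypes and were higher in every clone, as were 16.3% of all genes tested. Serpinh1, the collagen chaperone Hsp47, was called higher in clone 8 (1.22, SE 0.12, edgeR adjusted p = 0.000759) and in clone 15 (1.08, SE 0.12, edgeR adjusted p = 0.00152), the clones with the most Col4a1. Nid2 was called in clone 8 at 1.55 (SE 0.20, edgeR adjusted p = 0.00199). Col18a1, which encodes the collagen of endostatin, was called lower in clone 15 at -1.37 (SE 0.24, edgeR adjusted p = 0.00739), and likewise against clone 11. Without WT1 the genes called against wild type were 8 higher in clone 8, 3 higher in clone 11, and 6 higher and 1 lower in clone 15, beside the shares of all genes given above.

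Genes for ligands of the PDGF receptors were called in different clones. Pdgfa was at 14.4, 7.61 and 5.79 TPM in uninduced WT1, WT2 and WT3 and at 35.4, 33.2 and 21.3 TPM in uninduced clones 8, 11 and 15, with no overlap and a log2 fold change of 1.57 (SE 0.40, edgeR adjusted p = 0.145). DESeq2 called it with an adjusted p of 0.00555, beside 1.80% of genes higher. Pdgfb and Pdgfrb did not overlap either, and 16.3% of all genes tested had every clone above every wild-type sample. Of the 5 genes for PDGF ligands and the receptor Pdgfrb, none was called by edgeR, 3 were higher at an unadjusted p under 0.05, beside 11.9% of all genes, and the median was 1.38. The largest difference was that of Pdgfrb, at 3.28 (SE 0.95, edgeR adjusted p = 0.162), a gene that stayed below 2 TPM, and Pdgfc had 1.38 (SE 0.76, edgeR adjusted p = 0.321). Pdgfa was called in clone 8 (1.80, SE 0.36, edgeR adjusted p = 0.00828), Pdgfb in clones 8 (1.64, SE 0.21, edgeR adjusted p = 0.00196) and 15 (1.58, SE 0.21, edgeR adjusted p = 0.00313), and Pdgfrb in clone 15 (4.12, SE 0.67, edgeR adjusted p = 0.00568). Clone 11 had a difference in Pdgfa as large as that of clone 8 (1.81, SE 0.35, edgeR adjusted p = 0.0172), which did not pass by edgeR but was called by DESeq2 (1.79, adjusted p = 0.000119), as was Pdgfc (2.34, DESeq2 adjusted p = 0.000541), where DESeq2 called 2.59% of genes higher. In clone 15 Pdgfa had 0.89 (SE 0.36, edgeR adjusted p = 0.0966). Pdgfb was also higher in clones 8 and 15 than in clone 11. Without WT1, edgeR called 3 of the 5 genes higher in clone 8, 2 higher and 1 lower in clone 11 and 4 higher in clone 15, and none in the uninduced comparison. The shares of all genes called higher in clones 8, 11 and 15 were then 13.0%, 6.46% and 11.9%, and 3.03% were called lower in clone 11. The receptor gene Pdgfra itself was called by edgeR in no clone with all libraries.

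Genes of FGF and ERK signalling, 14 in number and all tested, had a median of -0.14 in the uninduced comparison. None was called by edgeR, with or without WT1, or by DESeq2, and 3 were lower at an unadjusted p under 0.05, beside 8.49% of all genes tested. The largest differences were those of Spry4 (-0.71, SE 0.23, edgeR adjusted p = 0.185), Dusp6 (-0.64, SE 0.17, edgeR adjusted p = 0.154) and Etv5 (-0.40, SE 0.14, edgeR adjusted p = 0.20). Each of these 3 genes was lower in every uninduced clone than in every uninduced wild-type sample, as were 6.79% of all genes tested. Spry4 was called lower in clone 8 against wild type (-1.09, SE 0.20, edgeR adjusted p = 0.00592), and at a similar -1.0 with an edgeR adjusted p of 5.58e-05 it missed the 2-fold minimum without WT1, where no gene of this list was called in any clone against wild type. Fgf4, the ligand made by epiblast cells, and Spry2 were called lower in clones 8 and 15 than in clone 11, with Fgf4 at -1.04 (SE 0.18, edgeR adjusted p = 0.00504) and -1.01 (SE 0.18, edgeR adjusted p = 0.00578).

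Calls of list genes in the clones were also repeated with each wild-type sample left out. Of 21 such calls, counted once per gene and clone contrast, edgeR called 20 again without WT1, 6 without WT2 and 5 without WT3. The 4 that held in each case were Serpinh1 in clone 8 against wild type, Fst in clone 8 against clone 11, and Spry2 and the pluripotency factor Pou5f1 in clone 15 against clone 11. Over the 11 calls against wild type, the largest shift of the log2 fold change had a median of 0.15 and a maximum of 0.96, for Fst. In the 10 calls between clones no library of the contrast itself was left out, and the wild-type samples enter these only through the filter, the scaling and the shared spread.

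Markers of other cell types that ESC cultures can hold moved with some of these values. The 8 pluripotent cell markers had a median of 0.47, and Sox2, Nanog, Esrrb, Klf4 and Tfcp2l1 did not overlap between the genotypes and were higher in every clone, as were 16.3% of all genes tested. Nanog, the epiblast factor that opposes Gata6, was at 157.4, 98.4 and 50.2 TPM in uninduced WT1, WT2 and WT3 and at 402.6, 320.5 and 191.8 TPM in uninduced clones 8, 11 and 15 (log2 fold change 1.42, SE 0.45, edgeR adjusted p = 0.175). By edgeR none of the 8 was called, with or without WT1, and 2 were higher at an unadjusted p under 0.05, beside 11.9% of all genes, and DESeq2 called Tfcp2l1 (1.86, adjusted p = 0.00341). Pou5f1 was called lower in clone 15 than in clone 11 (-1.64, SE 0.23, edgeR adjusted p = 0.00201). Against wild type, edgeR called none of the 8 in any clone with all libraries. DESeq2 called Tfcp2l1 higher in clones 8, 11 and 15 (adjusted p = 0.00164, 0.00031 and 0.00658). It called Nanog higher in clones 8 and 11 (adjusted p = 0.000635 and 0.00338) and Pou5f1 lower in clone 15 (-1.16, adjusted p = 2.91e-05). The DESeq2 shares of all genes were 2.59% higher in clone 11, and 5.26% higher and 4.64% lower in clone 15. Without WT1, 4 of the 8 were called higher in clone 8, 4 in clone 11 and 2 in clone 15, beside 13.0%, 6.46% and 11.9% of all genes, and 1 was called lower in clone 15, beside 8.31%.

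The summed level of 5 trophoblast markers had the same order across the 6 uninduced lines as Col4a1. It was 76.9, 11.3 and 12 TPM in uninduced WT1, WT2 and WT3 and 91.9, 31.0 and 97.2 TPM in uninduced clones 8, 11 and 15. The summed mesendoderm and definitive endoderm markers had this order too, except that clone 8 (23.5 TPM) lay above clone 15 (21.3 TPM). The share of all genes with this order was not counted. In the uninduced comparison none of the 5 was called by edgeR, with or without WT1, or by DESeq2 or had an unadjusted p under 0.05, with a median of 0.92 and the largest differences in Elf5 (2.06, SE 1.45), Krt7 (1.38, SE 1.21) and Tfap2c (0.92, SE 0.51). Against wild type over both conditions, none was called in any clone with all libraries, whereas without WT1 edgeR called 4 higher in clone 8, 3 in clone 11 and 4 in clone 15, beside 13.0%, 6.46% and 11.9% of all genes. Hand1, named after its values were seen because WT1 stood far from WT2 and WT3 in it, was at 35.5 TPM in uninduced WT1, at 0.286 and 0.598 TPM in WT2 and WT3, and at 27.1, 9.36 and 35.4 TPM in clones 8, 11 and 15. Elf5, the defining trophoblast factor, was listed at 1.24 TPM in uninduced and 1.35 TPM in induced WT1, at no more than 0.0157 TPM in WT2 and WT3, and at 0.765 to 3.22 TPM in the clones, so that WT1 lay within the range of the clones. The part of trophoblast-like cells in the levels of Col4a1 or Sparc was not tested.

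The 8 fibroblast markers summed to 8.87 to 17.9 TPM in uninduced wild-type and 20.3 to 29.8 TPM in uninduced ΔCdk8 libraries. Thy1 was the main part of this sum, at 8.32 to 16.1 TPM in uninduced wild-type libraries and 18.8, 28.7 and 10.6 TPM in clones 8, 11 and 15. Col3a1, Dcn and Lum stayed below 1 TPM in all 12 libraries, and of the 5 markers tested none was called by edgeR or DESeq2, with a median of 1.76. At an unadjusted p under 0.05, 1 was higher, Pdgfrb, beside 11.9% of all genes tested. The other large differences were those of Col1a1 (1.82, SE 0.84) and Col1a2 (1.76, SE 1.33), which came from clone 15, the clone with the most Col4a1. Its uninduced library had 3.36 TPM of Col1a1, 3.67 TPM of Col1a2 and 2.71 TPM of Postn, against at most 0.682, 0.539 and 0.196 TPM in the other 5 uninduced libraries. Against wild type, Col1a2 had 3.40 (SE 1.05, edgeR adjusted p = 0.0436) in clone 15 and was called there by DESeq2 (3.43, adjusted p = 0.00943). Without WT1, edgeR called 1 fibroblast marker higher in clone 8, 1 in clone 11 and 4 in clone 15, beside 13.0%, 6.46% and 11.9% of all genes. The 7 mesendoderm and definitive endoderm markers summed to 7.42 to 16.1 TPM in wild-type and 12 to 23.5 TPM in ΔCdk8 uninduced libraries, with T, Gsc and Cer1 below 1 TPM throughout. Of the 4 tested, none was called by edgeR or DESeq2, with a median of 0.44. Eomes was higher at an unadjusted p under 0.05 (1.77, SE 0.53, edgeR adjusted p = 0.168), beside 11.9% of all genes tested. It was also higher in every clone than in every wild-type sample, as were 16.3% of all genes tested. Mixl1 had 0.75 (SE 0.66) and Cxcr4 -0.50 (SE 0.49), and without WT1 edgeR called 1 of these markers higher in each clone against wild type, beside the same shares of all genes. Their part in the levels of the primitive endoderm genes was not tested.

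**Figure D5:**
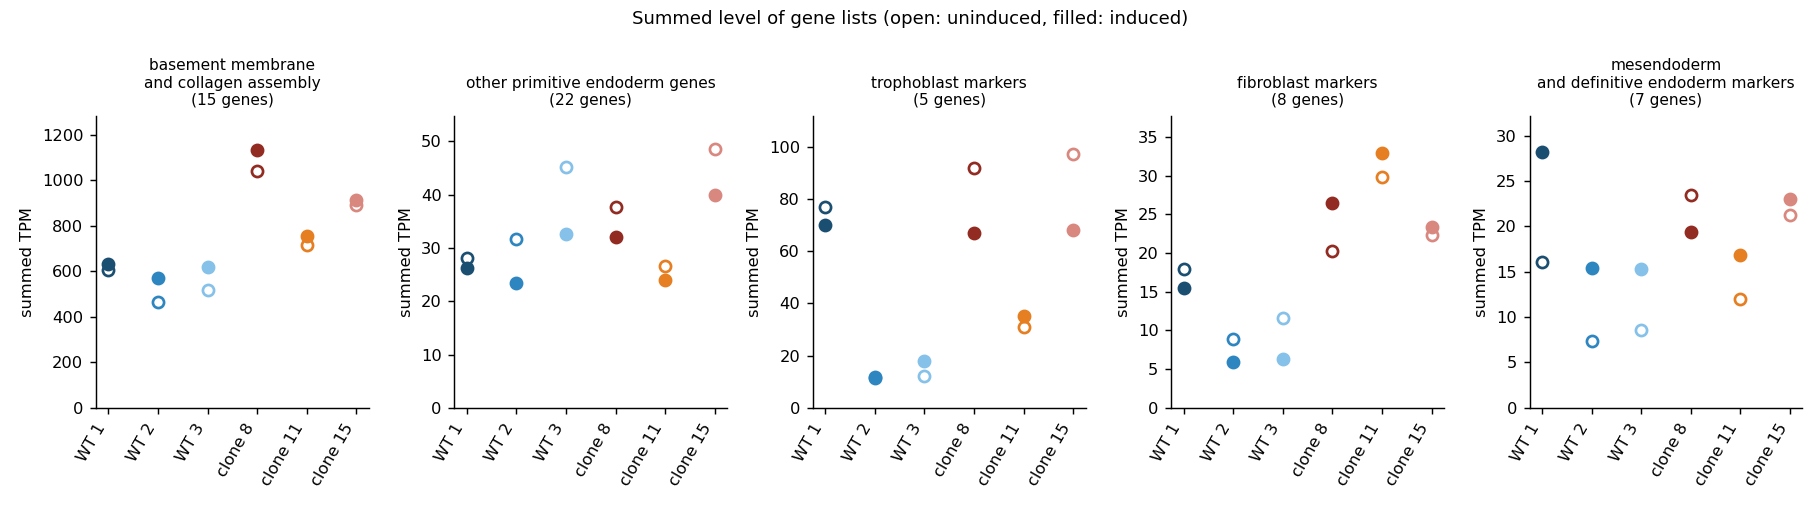
Summed TPM of 5 gene lists in each wild-type sample and ΔCdk8 clone, with a separate vertical axis per list that starts at 0. Open circles are uninduced and filled circles induced libraries. Trophoblast markers are high in WT1, clone 8 and clone 15, basement membrane genes are highest in clones 8 and 15, and the summed level of the other primitive endoderm genes overlaps between the genotypes.

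The genes outside the list whose levels were most like those of the members were Hddc3, Pla2g7, Trim16, Ccdc113 and Serinc3. Likeness was the mean correlation over 12 libraries with the 5 members that had a mean of at least 1 TPM, which were Gata6, Dab2, Lama1, Col4a1 and Sparc, and it ranged from 0.581 for Serinc3 to 0.592 for Hddc3. Serinc3 had a mean of 47.6 TPM in uninduced wild-type and 122.3 TPM in uninduced ΔCdk8 ESCs. With a minimum mean of 5 TPM, 0 of these 5 were again among the 5 most similar.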

How the data were processed

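Per the authors, stranded libraries of polyadenylated RNA were sequenced as 125 base reads, which were aligned without adapter trimming to Ensembl release 94 of GRCm38 in CLC Genomics Workbench 11. For each of the 12 samples they deposited raw counts of reads per gene, which entered the tests, and TPM values, which the authors derived from exon reads and which give the levels. Groups came from the sample labels.

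Counts were tested in R 4.3.3 with edgeR 4.0.16 (TMM, filterByExpr at its count minimum of 10 and total minimum of 15, quasi-likelihood F test, two-sided, Benjamini-Hochberg adjustment over all genes tested). Calls required more than a 2-fold difference at an adjusted p under 0.01. The SE is the log2 fold change over the square root of F. Clone contrasts used all 12 libraries with an induction term per genotype. DESeq2 1.42.0, exon reads, TMM over autosomes, no filter, all libraries in 1 fit, a replicate block and leaving out each replicate were the alternatives. Leaving out wild-type replicates in clone contrasts was chosen after seeing the data. Levels and figures used Python 3.11.15, numpy 2.4.6, pandas 2.3.3 and matplotlib 3.10.9.

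Sample numbers in the titles pair induced with uninduced libraries. Deviations from the group mean correlated at 0.613 to 0.717 for the same number and at most 0.440 for different numbers in wild type, and at 0.876 to 0.922 and at most 0.0120 in the clones, which are the same line.

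The tests were checked on simulated counts with known changes.

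The 8 genes, the gene lists and the tests were chosen with earlier results of these data known. Named besides the 8 genes are list genes that were called, the 3 with the largest uninduced difference in each list, Gata4, Sox7, Hnf4a, Col4a2, Lamb1, Lamc1, Pdgfa, Cdk8, the 5 most similar genes and list genes that did not overlap between the genotypes or that DESeq2 called in the uninduced comparison. Other list genes named, such as those below 1 TPM, those that made up most of a list's sum and those called by DESeq2 in a clone, were chosen after their values were seen. Counting intervals were not computed, and 3 reads were taken as the detection limit.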

Additional observations from a re-analysis of the deposited data

How the results depend on the processing

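Among single members, no called value reversed, and 460 of 479 alternative values kept their direction. Gata6 and Pdgfra rest on few reads, and Sox17 and Foxa2 were below the filter.

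The count of all genes called, with edgeR first and DESeq2 second, was 0 and 386 in the uninduced comparison, 162 and 662 for induction in wild type, 0 and 36 for induction in ΔCdk8, 0 and 33 for the interaction, 792 and 1744 for clone 8, 199 and 674 for clone 11, 467 and 1499 for clone 15 against wild type, 773 and 1521 for clone 8 against 11, 796 and 1711 for clone 15 against 11, and 6 and 259 for clone 8 against 15. With all 12 libraries in 1 fit, 5 genes passed in the uninduced comparison. DESeq2 called 1 member higher on induction in wild type and 1 member lower in clone 8 against 11, where edgeR called 0. With the replicate block, which pairs the libraries of a number, 553 genes passed in wild type with 1 member higher, 208 in ΔCdk8 and 151 in the interaction, and it changed no other call of a member.

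With an adjusted p under 0.05 and no fold change minimum, 639 genes passed on induction in wild type, 4229, 1138 and 3741 in clones 8, 11 and 15 against wild type, 3441 for clone 8 against 11, 3887 for clone 15 against 11 and 114 for clone 8 against 15. This added 1 member higher in clone 15 and 1 higher and 1 lower in clone 8 against 11.

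Leaving out 1 replicate at a time, between 0 and 2 genes passed in the uninduced comparison and between 0 and 566 on induction in wild type, with 0 to 1 members higher. Against wild type, 98 to 3221 genes passed in clone 8 with 0 to 2 members higher, 14 to 1475 in clone 11 with 0 to 4, and 22 to 3142 in clone 15 with 0 to 4. For clone 8 against 11 the range was 398 to 2073 genes with 0 to 1 members higher and 0 to 3 lower, for clone 15 against 11 it was 389 to 2335 with 0 to 1 higher and 0 to 1 lower, and for clone 8 against 15 it was 0 to 577. Each upper bound outside the uninduced comparison came from leaving out WT1. In the uninduced comparison 2 genes passed without WT1 and 2 without clone 11. The cause of these shifts was not tested. Of the 5 most similar genes, 0 were shared with a minimum mean of 5 TPM.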
